A study of Saccharomyces cerevisiae with 10 samples.

Results

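The 10 histone genes of budding yeast, Saccharomyces cerevisiae, were compared between the strains DJ28 and FY23. They were taken as the rows of the deposited table whose platform gene symbol is HTA1, HTA2, HTB1, HTB2, HHT1, HHT2, HHF1, HHF2, HTZ1 or HHO1. Each of the 10 genes had 1 row among the 6277 rows of the table, of which 5663 carried a gene name. All 10 genes passed the filter on missing values described below, and 9 of them had a value on every array, while HTZ1 lacked one on array 1.

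Both strains were hybridised together on each of 10 two-colour arrays. Per the labels, DJ28 was in Cy5 and FY23 in Cy3 on arrays 6 to 10, and DJ28 was in Cy3 and FY23 in Cy5 on arrays 1 to 5. The series concerns activation of the Ras/cAMP route, and its keyword PDE2 is the gene of an enzyme that breaks down cyclic AMP. The labels give no genotype, medium, growth stage or number of cultures, so the p-values cover the array-to-array spread alone, and that spread may be technical. From background knowledge of the study, and not from a label, DJ28 is a derivative of FY23 that lacks PDE2. The log base and the numerator of the deposited ratio are unstated. Values were read as log2 and as Cy5 over Cy3, because PDE2 then comes out lower in DJ28. That reading is only the likely one: under its opposite each higher and lower below, for strains and for dyes alike, turns over while sizes and p-values stay.

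Nucleosomes hold a pair each of the core histones H2A, H2B, H3 and H4, with DNA wound around them. In budding yeast each core histone is encoded by 2 gene copies, arranged as neighbouring pairs that share a promoter region: HTA1 with HTB1 and HTA2 with HTB2 for H2A and H2B, and HHT1 with HHF1 and HHT2 with HHF2 for H3 and H4. Their messages are abundant and are made mainly in S phase, so that histone supply follows DNA replication. The activators Spt10 and Spt21 act on their promoters, and the HIR repressor complex acts on some of these promoters but not all. HTZ1 encodes the variant H2A.Z, which the SWR1 complex places near gene starts, and HHO1 encodes the linker histone. The copies of a core histone are so alike in coding sequence that a spot for 1 copy can bind message of the other. The labels do not say which part of a gene its spot covers, so the copies are uncertain as separate measurements.

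PDE2 set the direction of the ratio, so its sign is no check of the strain labels. Over the 9 arrays with a value its log2 ratio of DJ28 over FY23 ran from -2.53 to -0.997 with a median of -2.32, and limma put the strain difference at -1.96 (standard error 0.168, adjusted p = 0.00153). It was negative on 8 of 8 replicates, so the dye orientations of the labels fit together for this gene. Arrays 1 and 2 were sparse, with 2230 and 4342 values, while arrays 3 to 10 had between 5755 and 6048. Arrays 6 and 7 were nearly alike (r = 0.988, where no other pair passed 0.694), so their mean entered as a single replicate and 9 replicates remained. Arrays 4, 5, 9 and 10 each held values capped at 16.61, the highest value in the table, and are given as a set of their own below. No label names a batch.

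Of the 10 histone genes 0 passed limma's test of DJ28 against FY23, in which 0.549% of the 5642 tested genes were called (31 genes). The fitted strain differences of the 10 genes lay between 0.07 for HTB1 and 0.33 for HTZ1 on the log2 scale. All 10 were positive, as were 3164 of the 5642 tested genes. The median was 0.112 for the 8 core genes against 0.032 for all tested genes. The sign was not steady between arrays: a core gene was higher in DJ28 on 4 or 5 of 9 replicates and lower on the other 5 or 4. By dye the sign of the core genes was steadier. Their ratio lay on the Cy5 side of the array median on 8 or 9 of 9 replicates, whichever strain was in Cy5.

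The arrays show this gene by gene, in log2 ratios taken as Cy5 over Cy3 from which the median of the array was subtracted. HTA1 read 1.80, 1.79, 0.96, 0.66 and 0.47 on arrays 6 to 10, with DJ28 in Cy5, and 0.74, 0.76, 0.87, 0.62 and -0.09 on arrays 1 to 5, with DJ28 in Cy3. HTA2, the other copy for H2A, read 1.65, 1.72, 0.92, 0.24 and 0.33 with DJ28 in Cy5, and 0.65, 0.71, 0.72, 0.35 and -0.12 with DJ28 in Cy3. Both copies were highest on arrays 6 and 7 and lowest on array 5, and their values in the 2 orientations overlapped.

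The H2B copies had the same shape. HTB1 read 1.62, 1.61, 0.65, 0.54 and 0.44 on arrays 6 to 10, with DJ28 in Cy5, and 0.91, 0.95, 0.99, 0.50 and 0.01 on arrays 1 to 5, with DJ28 in Cy3. HTB2 read 1.63, 1.59, 0.80, 0.56 and 0.50 with DJ28 in Cy5, and 0.86, 0.79, 1.09, 0.63 and 0.04 with DJ28 in Cy3. Neither H2B copy fell below the array median on any array, and the orientations overlapped again.

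For H3, HHT1 read 1.74, 1.73, 1.12, 0.31 and 0.35 with DJ28 in Cy5, and 0.81, 1.02, 0.86, 0.66 and -0.08 with DJ28 in Cy3. HHT2 read 1.71, 1.73, 1.41, 0.18 and 0.44 with DJ28 in Cy5, and 0.85, 0.92, 1.29, 0.48 and -0.02 with DJ28 in Cy3. The H3 copies parted most on arrays 3 and 8, where HHT2 stood above HHT1 by 0.42 and 0.29.

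The H4 genes reached the highest ratios of the 10. HHF1 read 2.09, 2.14, 1.04, 0.33 and 0.47 with DJ28 in Cy5, and 1.01, 1.02, 0.95, 0.86 and -0.05 with DJ28 in Cy3. HHF2 read 2.24, 2.20, 1.26, 0.21 and 0.56 with DJ28 in Cy5, and 1.16, 1.06, 1.22, 0.69 and 0.10 with DJ28 in Cy3. On array 6 HHF2 stood above 99.9% of all rows with a value, and on array 5 at the percentile 60.4.

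The variant H2A.Z and the linker histone are each encoded by a single gene. HTZ1 read 1.53, 1.51, 0.71, 0.51 and 0.49 with DJ28 in Cy5, and 0.32, 0.35, -0.30 and 0.23 on arrays 2 to 5, with DJ28 in Cy3. It was the only member of the 10 whose values did not overlap between the orientations, as was the case for 8.12% of all tested genes. HHO1 read 0.45, 0.54, 0.26, -0.34 and -0.15 with DJ28 in Cy5, and -0.14, -0.04, 0.23, -0.33 and -0.70 with DJ28 in Cy3, and so lay on both sides of the array median in both orientations.

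**Figure D1:**
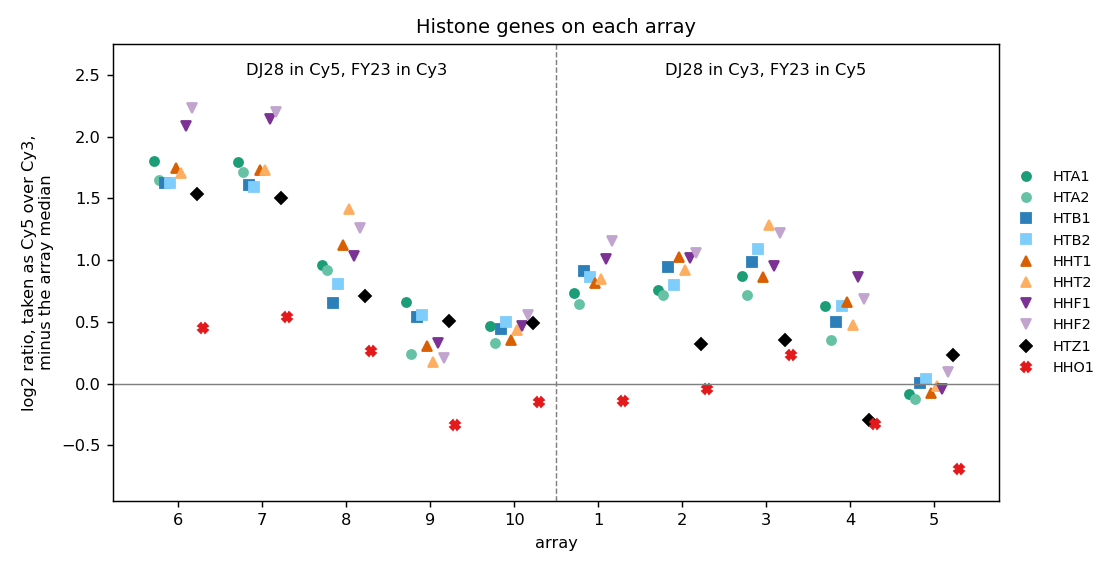
Log2 ratio of each histone gene, taken as Cy5 over Cy3 and with the array median subtracted, on each of the 10 arrays, with DJ28 in Cy5 on the left and DJ28 in Cy3 on the right. Each point is 1 gene on 1 array. The 8 core genes lie above 0 on every array except array 5, where they run from -0.12 to 0.10, and reach 1.59 to 2.24 on arrays 6 and 7, while HHO1 lies lower, between -0.70 and 0.54.

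The strain term of the fit set the orientations against each other, which takes out a dye effect that is equal on all arrays. HTZ1 had the largest strain difference of the 10, at 0.33 with a standard error of 0.138, which is 1.25-fold higher in DJ28 with a 95% interval from 0.02 to 0.63 in log2. It was higher in DJ28 on 5 of 8 replicates, and its unadjusted p of 0.0382 became an adjusted p of 0.353 (limma). HTA1 and HTA2 came next among the nucleosome core, at 0.195 (standard error 0.148, adjusted p = 0.571) and 0.166 (0.155, adjusted p = 0.655). At an unadjusted p under 0.05, 1 of the 10 members and 753 of all 5642 genes passed.

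The H3 and H4 copies sat close together in strain difference: 0.111 for HHT1, 0.116 for HHT2, 0.113 for HHF1 and 0.108 for HHF2, with standard errors between 0.164 and 0.194. HTB1 at 0.070 and HTB2 at 0.092 were the lowest, and HHO1 lay at 0.131 (standard error 0.122, limma adjusted p = 0.652). The 95% intervals of the core genes reached at most 0.53, or 1.45-fold higher in DJ28, and at least -0.32. For each core gene, strain differences within its own interval were thus not excluded. Among all tested genes the 8 core genes ranked between the percentiles 57.7 and 79.8 of the strain difference.

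Which arrays enter moved these small values, in several cases enough to change the sign. In a single orientation no dye term can be fitted, so by construction the gap between the orientations restates the dye term. With DJ28 in Cy5 alone the 8 core genes averaged from 0.79 to 1.06 in DJ28 over FY23. With DJ28 in Cy3 alone the same genes averaged from -0.84 to -0.46. Without arrays 6 and 7 together the median of the core genes was -0.032, with HTA1 at 0.057, HTA2 at 0.018 and the other core genes negative. Within arrays 4, 5, 9 and 10 the strain differences of the 8 core genes ran from -0.01 to 0.15, and within the remaining arrays from 0.09 to 0.30. With a dye term fitted in each of these array sets, the median of the core genes was 0.157, and 0 of 10 members passed limma's test. No change of the strain difference between these array sets passed the test (limma, 0 of 10 members, against 0.0177% of all genes, 1 of 5641), and the lowest unadjusted p among the 10 was 0.227.

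**Figure D2:**
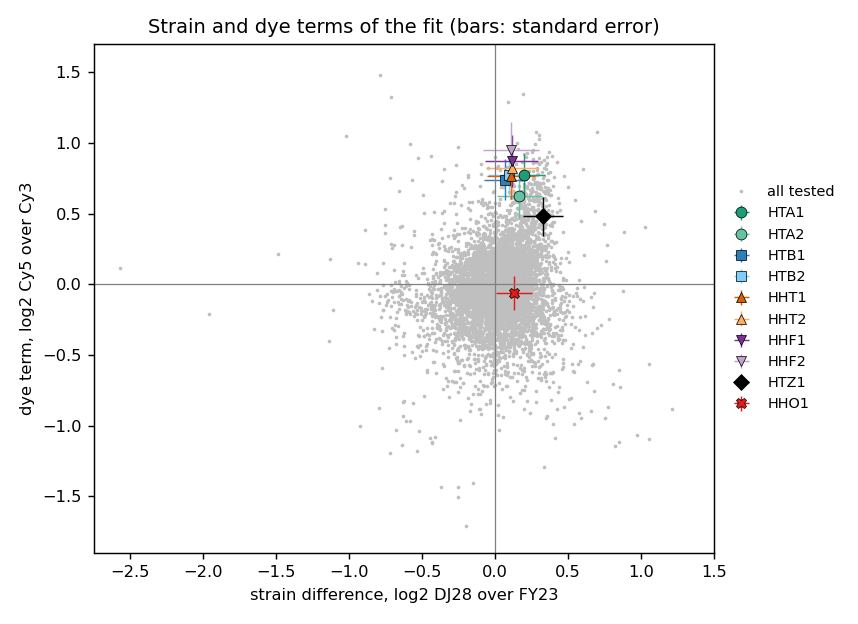
Strain difference (x axis, log2 DJ28 over FY23) against the dye term (y axis, log2 Cy5 over Cy3) for all 5642 tested genes in grey and the 10 histone genes in colour, with standard errors as bars. The 8 core genes lie between 0.07 and 0.20 in strain difference and between 0.63 and 0.95 in dye term.

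The dye term was large for the core genes. It passed the test on the Cy5 side for 7 of the 10 members, against 2.82% of all tested genes (limma, 159 of 5642). HHF2 had the largest, 0.95 with a standard error of 0.194, a 1.94-fold excess of Cy5 over both orientations (adjusted p = 0.0341), and ranked 15 of all tested genes. HHF1 followed at 0.87, HHT2 at 0.82, HTA1 at 0.776, HTB2 at 0.775, HHT1 at 0.77 and HTB1 at 0.74, with adjusted p between 0.0286 and 0.038. HTA2 at 0.63 (adjusted p = 0.0528) and HTZ1 at 0.48 (adjusted p = 0.0861) did not pass.

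HHO1 stood apart, with a dye term of -0.06 (standard error 0.122, adjusted p = 0.786). The dye terms of the 8 core genes exceeded their strain differences in every case, and that of HTZ1 did too. The calls did not hold with some arrays left out: 0 members passed without array 1, without array 2 or without array 8. Without array 3, 4 passed, and 0 passed without arrays 6 and 7 together. The dye terms of the 8 core genes themselves stayed between 0.595 and 1.095 with any single array left out.

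The size of the dye term differed between the array sets. Within arrays 4, 5, 9 and 10 it ran from 0.20 for HTA2 to 0.43 for HTB2 among the core genes, and within the remaining arrays from 1.00 for HTA2 to 1.44 for HHF2. In a joint fit the difference of the dye term, arrays 4, 5, 9 and 10 minus the remaining arrays, passed for 2 of the 10 members, against 0.674% of all genes (limma, 38 of 5641). They were HHF2 at -1.06 (standard error 0.233, adjusted p = 0.0445) and HHT2 at -1.02 (0.187, adjusted p = 0.0307), which encode H4 and H3 from a single locus. The difference was negative for all 10 members, from -1.06 to -0.49. HHO1 had dye terms of -0.38 within arrays 4, 5, 9 and 10 and 0.20 within the remaining arrays, and neither passed limma's test.

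**Figure D3:**
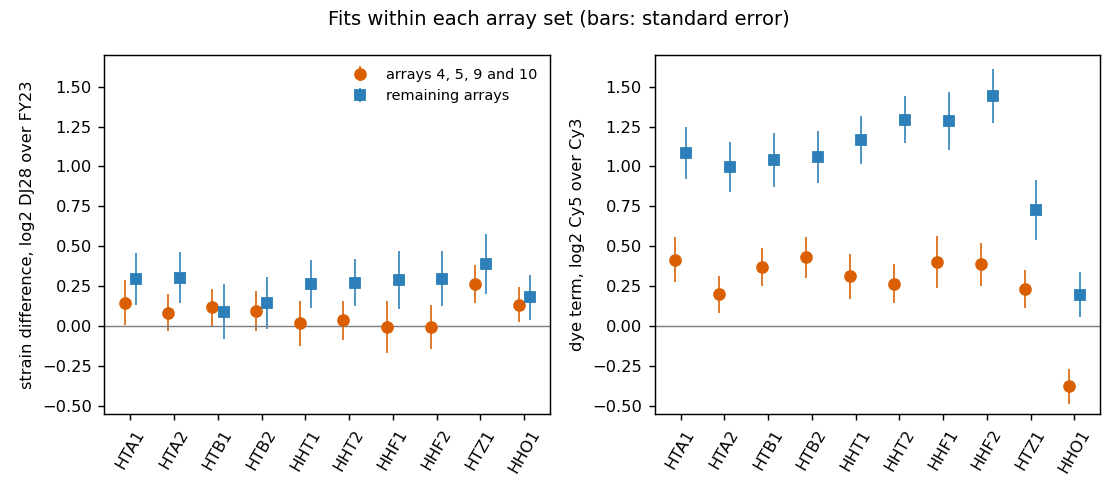
Strain difference (left, log2 DJ28 over FY23) and dye term (right, log2 Cy5 over Cy3) of each histone gene, fitted within arrays 4, 5, 9 and 10 (circles) and within the remaining arrays (squares), with standard errors as bars. The dye terms of the core genes are 0.20 to 0.43 in the first set and 1.00 to 1.44 in the second.

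Copy by copy, no strain difference between the copies of a core histone passed the test. The comparison used the difference of their log2 ratios within each array and an exact two-sided permutation test of the orientations over 9 replicates. HTA1 exceeded HTA2 by 0.03 in strain difference (95% interval -0.08 to 0.13, exact p = 0.556). HTB1 minus HTB2 was -0.02 (-0.10 to 0.06, exact p = 0.548), HHT1 minus HHT2 was -0.005 (-0.17 to 0.16, exact p = 0.952) and HHF1 minus HHF2 was 0.005 (-0.12 to 0.13, exact p = 0.921). The widest of these 4 intervals allows copies to differ by up to 1.13-fold. Because the copies can share message on a spot, a difference between them may be understated.

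Neighbours on the chromosome, which share a promoter region, were compared likewise. HTA1 minus HTB1 was 0.125 in strain difference (95% interval 0.03 to 0.22), with an exact permutation p of 0.0317 that became 0.254 when adjusted over the 8 pairs. The within-array difference of HTA1 over HTB1 was 0.18, 0.19, 0.31, 0.12 and 0.03 on arrays 6 to 10, with DJ28 in Cy5, and -0.18, -0.19, -0.11, 0.12 and -0.09 on arrays 1 to 5, with DJ28 in Cy3. All 5 values with DJ28 in Cy5 were above 0, and 4 of 5 with DJ28 in Cy3 were below it, but array 4 reached the level of array 9. HTA2 minus HTB2 was 0.07 (-0.05 to 0.20, exact permutation p = 0.214). HHT1 minus HHF1 was -0.002 and HHT2 minus HHF2 was 0.008, both with exact permutation p above 0.9. Of the 8 pairs, 0 passed the adjusted test and 1 had an unadjusted p under 0.05. The smallest exact p of this test is 0.00794, which adjusts to 0.0635 for a pair that reaches it alone, so no pair could pass by itself. A limma fit to the same differences, which has no such floor, also called 0. It gave every pair the same standard error, 0.053, pooled over pairs that share genes. On its own HTA1 minus HTB1 had a standard error of 0.041.

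In the dye term the H2A copies did differ. HTA1 stood above HTA2 on 9 of 9 replicates, by 0.04 to 0.42, with a mean of 0.15 (exact sign-permutation p = 0.00391, the smallest that 512 sign patterns can give, and 0.0235 adjusted over 12 contrasts). The mean of the 8 core genes stood above HHO1 on 9 of 9 replicates as well, by 0.59 to 1.32, with a mean of 0.85 (exact sign-permutation p = 0.00391, adjusted p = 0.0235). It exceeded HTZ1 by 0.29, on 5 of 8 replicates (exact sign-permutation p = 0.102, adjusted p = 0.153). Genes for H2A and H2B lay below those for H3 and H4 by 0.12, on 8 of 9 replicates, and this did not pass (exact sign-permutation p = 0.082, adjusted p = 0.141). Without arrays 1 and 2 together the means were 0.17 for the H2A copies and 0.82 for the core genes over HHO1. Both then had the smallest exact p that 128 sign patterns can give, 0.0156, which adjusts to 0.0938, so with that number of arrays these contrasts could not pass without others at the same p.

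**Figure D4:**
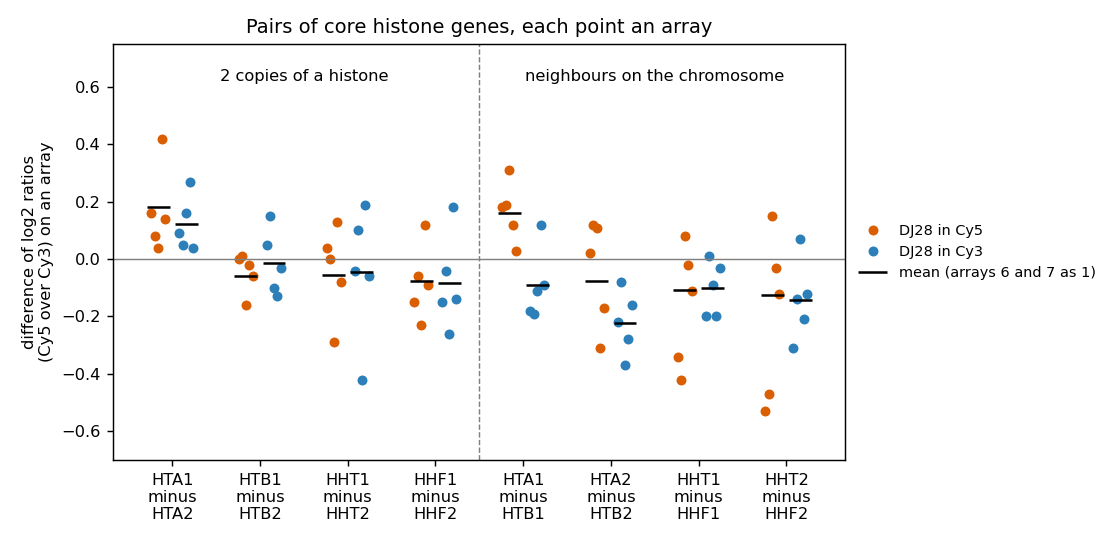
Difference of the log2 ratios (Cy5 over Cy3) of 2 core histone genes on each array, for the copies of each histone (left) and for neighbours on the chromosome (right), with DJ28 in Cy5 left of DJ28 in Cy3 in each pair. Each point is an array and each bar a group mean with arrays 6 and 7 counted as 1. HTA1 minus HTA2 lies above 0 on every array, and HTA1 minus HTB1 lies above 0 on all arrays with DJ28 in Cy5.

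The core genes thus varied far more between arrays than among themselves. Their mean over the 8 genes on an array had an SD of 0.52 over the 9 replicates, while the SD over the 8 genes within an array had a median of 0.17. The genes for cytosolic ribosomal proteins, another set of abundant messages, had a median of 1.63, 1.64, 0.85, 0.46 and 0.52 on arrays 6 to 10, against core histone means of 1.81, 1.81, 1.02, 0.38 and 0.44. On arrays 1 to 5 the ribosomal medians were 0.50, 0.59, 0.45, 0.37 and -0.13, against 0.87, 0.90, 1.00, 0.60 and -0.03 for the core histones. Of 128 ribosomal protein genes 53 had a called dye term on the Cy5 side (limma), against 2.82% of all tested genes (159 of 5642). The median dye term of the 128 genes was 0.594. The core histone mean exceeded the ribosomal median by 0.18 in dye term, which did not pass after adjustment (exact sign-permutation p = 0.0234, adjusted p = 0.0936 over 12 contrasts). In strain difference it lay at -0.134 relative to that median (exact permutation p = 0.0556, and 0.222 adjusted over 4 contrasts). The part that message abundance plays in the dye term was not tested, since the table holds ratios and no intensities.

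The genes outside the histones whose pattern was most like the mean of the 8 core genes were sought among the 4636 named genes without a gap on arrays 3 to 10. The measure was Pearson's r of ratios turned to DJ28 over FY23, with 1 dye term per gene, equal on all arrays, removed. Any part of the dye term that differs between the array sets stays in these values. They were ATP16, which encodes a subunit of the mitochondrial ATP synthase (r = 0.998 over 9 replicates), RPS6B, which encodes a ribosomal protein (0.993 over 8), FAU1, which encodes a folate enzyme (0.992 over 8), FUR1, which encodes uracil phosphoribosyltransferase (0.986 over 8), and ERV14, which encodes a cargo receptor of secretory vesicles (0.983 over 8). The core genes, which enter that mean, had r from 0.946 for HHT2 to 0.996 for HTA2. HHO1, which does not enter it, had r = 0.937, and HTZ1 had 0.733. They ranked 95 and 588 among the 4636 genes, so many genes outside the histones were as like the core mean. The points share the arrays and their centring, and the values describe likeness over these arrays only.

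Among genes that act on histone genes and histones, taken from lists of known function, limma called 0 for strain, beside 0.549% of all tested genes. Among regulators of histone transcription, 0 of 10 tested of 14 listed passed, with a median strain difference of -0.03. HIR3, of the HIR repressor, lay at -0.47 (standard error 0.226, adjusted p = 0.389) and SPT10, the activator, at 0.35 (0.220, adjusted p = 0.497). Among histone chaperones and carriers 0 of 12 tested of 14 passed, with HAT2, of a histone acetyltransferase that acts on new H4, at 0.32 and VPS75 at 0.21. Among genes for H2A.Z exchange and chromatin remodelling 0 of 13 tested of 14 passed, with YAF9 at 0.385 and RVB2 at 0.195.

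Of genes for the centromeric H3 variant and for handling of surplus histones 0 of 4 tested of 5 passed, with TOM1, a ubiquitin ligase, at -0.48 and RAD53, the checkpoint kinase, at -0.23. The list of DNA replication and S phase genes had 0 of 22 tested of 24 past the test, 16 differences above 0 and a median of 0.07, and DPB2, of DNA polymerase epsilon, at -0.30 and RFA2, of the single-strand binding complex, at 0.28 were the largest. At an unadjusted p under 0.05, 2 of the 4 surplus-handling genes and 2 of the 22 S phase genes passed, and 0 in the other 3 lists. Over all tested genes 753 of 5642 did so. In dye term 0 members of these 5 lists were called on the Cy5 side, beside the 2.82% of all genes given above, and their medians ran from -0.16 to 0.05, against 0.776 for the core histones. RVB2, at 0.553 (limma, adjusted p = 0.0526), was close to HTA2. The difference between these lists and the core genes was not tested. Of the mating-type markers, genes of a cells had 0 of 5 past the strain test, with a median of 0.29, MFA1 at 0.605 and MFA2 at 0.50. An unadjusted p under 0.05 was found for 3 of these 5, beside the same 753 of 5642. Their median dye term was 0.431, and 2 of 5 were called on the Cy5 side (limma), MFA1 at 0.815 (adjusted p = 0.0409) and MFA2 at 0.686 (adjusted p = 0.038). Genes of alpha cells had 0 of 3 tested of 4, with SAG1 at -0.16 and MF(ALPHA)1 at -0.05. A ratio carries no level, so the presence of either cell type could not be read from these markers.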

How the data were processed

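The authors deposited 1 value for each row and array, read here as a log2 ratio of the 2 dyes. How they corrected background, normalized or filtered is unstated in the labels. The members and gene lists were chosen with earlier results of these data known. Rows were named through the platform annotation and, for 5659 rows, the gene identifiers of assembly R64, while 614 rows stayed unnamed. Values at the upper limit (13 in all) counted as missing, the median of each array was subtracted, arrays 6 and 7 were averaged, and a gene was tested with at least 3 values in each orientation. Across all 5642 genes, limma 3.58.1 in R 4.3.3 (lmFit, eBayes) fitted a dye term and a strain term, with two-sided moderated tests, Benjamini-Hochberg adjustment and a threshold of 0.05. Pairs were compared by exact permutation of the orientations, and dye terms of pairs by exact sign permutation, in Python 3.11.15. The 4 contrasts between groups of members or with ribosomal protein genes, the dye tests of pairs and the dye term between array sets were added after the data were seen. The fits were tested on simulated data. Precision is limited by how few arrays there are, with a median standard error of 0.131. Named genes are the 10 members, PDE2, genes of the lists that passed or else the 2 largest differences of each list, and the 5 genes most like the core mean. No sequences were used.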

Additional observations from a re-analysis of the deposited data

Results flagged for a closer look

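For 7 core histone genes the sign of the strain ratio turned with the dye orientation, with a dye term that passed limma's test: 0.776 for HTA1, 0.74 for HTB1, 0.775 for HTB2, 0.768 for HHT1, 0.819 for HHT2, 0.873 for HHF1 and 0.953 for HHF2 on the log2 scale. The dye term also differed between arrays 4, 5, 9 and 10 and the remaining arrays for HHT2, by -1.024, and for HHF2, by -1.055. Array 5 lay far below the other 4 arrays with DJ28 in Cy3 for HHF1, at -0.045, and for HTA1, at -0.088. Chance marks about 1 in 20 such groups of arrays, and 20 groups were looked at.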

How the results depend on the processing

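Across 25 other settings of the fit (24 for HTZ1), 0 of 249 strain differences of the 10 histone genes passed limma's test. The lowest adjusted p (limma) was 0.149, with DJ28 in Cy5 only, where the dye cannot be separated from the strain. In the 22 settings with a single dye term, 176 of 176 dye terms of the core genes stayed positive, from 0.201 to 1.51. Of 128 pair differences 0 passed, which says nothing about stability for the permutation tests, since a pair that reached the smallest p alone could pass in 0 of 16 settings (smallest p from 0.00794 to 0.333). Counts moved more. The 31 genes called over the whole table became 79 with all 10 arrays counted apart, 17 without arrays 6 and 7, 4 with no centring, 113 with array weights, 6 without arrays 1 and 2, 2 with DJ28 in Cy5 only, and 0 with DJ28 in Cy3 only, in the remaining arrays (those other than 4, 5, 9 and 10) or with a trended robust prior, and 10 to 79 with single arrays left out. The 7 called dye terms became 9 with all 10 arrays counted apart or with no centring, 8 of 9 tested with a value on every array, 8 in the remaining arrays, 3 with array weights, 0 without arrays 6 and 7, without arrays 1 and 2, within arrays 4, 5, 9 and 10 or with the robust prior, and 0 to 8 with single arrays left out. The trend of the robust prior ran over each gene's mean absolute log ratio, not over intensity. With it the standard errors of the core genes lay between 0.225 and 0.356, against 0.141 to 0.194 in the main fit. With no centring the median dye term of all genes was 0.603. Strain differences changed sign without arrays 6 and 7 for HTB1 (-0.064), HTB2 (-0.031), HHT1 (-0.032), HHT2 (-0.014), HHF1 (-0.075), HHF2 (-0.085) and the core median (-0.032). They did so with array weights for HTB1 (-0.006), HHT1 (-0.037), HHT2 (-0.026), HHF1 (-0.047), HHF2 (-0.053) and the core median (-0.016). With DJ28 in Cy3 only they were -0.581 for HTA1, -0.461 for HTA2, -0.67 for HTB1, -0.683 for HTB2, -0.657 for HHT1, -0.703 for HHT2, -0.76 for HHF1, -0.845 for HHF2, -0.153 for HTZ1 and -0.676 for the core median, where the dye cannot be separated by construction. Within arrays 4, 5, 9 and 10 HHF1 and HHF2 were both at -0.006, and HTB1 ran from -0.013 to 0.132 with single arrays left out. The dye term of HHO1 was 0.495 with no centring, 0.198 in the remaining arrays and -0.116 to 0.005 with single arrays left out, and that of H2A and H2B over H3 and H4 was 0.012 within arrays 4, 5, 9 and 10. Pair differences near 0 changed sign too. With all arrays apart HHT1 over HHT2 was 0.003 and HHT2 over HHF2 was -0.03, and without arrays 6 and 7 HHT1 over HHF1 was 0.043. Without arrays 1 and 2 HTB1 over HTB2 was 0.016, HHT1 over HHT2 0.021, HHT1 over HHF1 0 and HHT2 over HHF2 -0.019. Within arrays 4, 5, 9 and 10 HTB1 over HTB2 was 0.021, HHF1 over HHF2 -0.001, HTA2 over HTB2 -0.011 and HHT1 over HHF1 0.024, and in the remaining arrays HTA1 over HTA2 was -0.01, HHF1 over HHF2 -0.007 and HHT2 over HHF2 -0.025. With single arrays left out the ranges were -0.028 to 0.037 for HHF1 over HHF2, -0.038 to 0.034 for HHT2 over HHF2, -0.052 to 0.034 for HHT1 over HHT2, -0.034 to 0.012 for HHT1 over HHF1 and -0.011 to 0.052 for HTA1 over HTA2. Unless stated, the cause was not tested. No paired analysis was possible because the titles number the arrays 1 to 10 without repeats. Leaving out array 6 or 7 keeps its near copy. The table holds no intensities, so signal over background could not be weighed.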
